A study of Mus musculus with 6 samples.

Results

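Interferon gamma and 7 other effector cytokine genes of lymphocytes were followed in CD36+ NK and CD36- NK cells from fibrotic mouse livers. The genes were taken by symbol from the deposited table. They are Ifng, the TNF superfamily ligand genes Tnf, Fasl, Lta, Ltb, Tnfsf14 and Tnfsf13b, and Csf2, which encodes GM-CSF. All 8 were among the 57180 genes of the table and among the 14761 genes tested. Male wild-type C57BL/6J mice of 6 to 8 weeks received CCl4, a liver toxin, at 2.5 ml/kg of a 20% solution in olive oil by intraperitoneal injection. They were injected 2 times per week for 4 weeks, and livers were taken 48 h after the last injection. NK cells were sorted by CD36, the fatty acid receptor, into 2 fractions with 3 libraries each, made from 400 ng of total RNA. The paper defines NK cells as CD3- and NK1.1+ in its flow cytometry, and does not restate the gate for this sort. Both fractions came from CCl4-treated animals, so no comparison here is with an untreated liver. The sources used here do not state whether animals were pooled or whether libraries of both fractions share animals, so p-values measure only the spread between these libraries.

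NK cells act on neighbouring cells through secreted cytokines and membrane-bound ligands. Interferon gamma signals through JAK kinases and activates macrophages, and in the liver NK cell interferon gamma is known to restrain hepatic stellate cells, the main collagen-producing cells of fibrosis. Ligands of the TNF superfamily act as trimers on receptors that recruit TRAF adaptors or, for Fas and TNF receptor 1, death domain adaptors. Fas ligand kills target cells that carry Fas, whereas lymphotoxins and LIGHT signal to stromal and myeloid cells and BAFF keeps B cells alive.

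The 6 libraries held 10292480 to 13787189 counts each. The names of the libraries titled CD36+ are written as CD36--NK, which can be read as a minus sign. Those titled CD36- are written as CD36-NK or CD36- NK, without a plus sign, and some are numbered differently. The titles were followed. Cd36 had a mean of 203 CPM (counts relative to the library total, which was scaled by the TMM method) in CD36+ NK and 21.0 CPM in CD36- NK, higher in each of the 3 libraries titled CD36+. Of 10 NK lineage marker genes, 9 were lower in CD36+ NK, and their summed level was 1291 to 1481 CPM in CD36+ NK against 5861 to 7543 CPM in CD36- NK. Gzma, the gene of granzyme A, ran from 301 to 342 CPM against 1611 to 2067 CPM. Of 10 macrophage and Kupffer cell genes, 8 were tested, of which 3 were called higher and none lower, with sums of 2251 to 5584 CPM against 364 to 1366 CPM. Clec4f, a defining Kupffer cell gene, was at 1.51, 45.9 and 0 CPM in CD36+ NK replicates 1, 2 and 3 and at 0 in all 3 CD36- NK libraries. Marco, another macrophage gene chosen after its values were seen, was at 14.4, 31.6 and 47.5 CPM in CD36+ NK and at 1.00, 5.92 and 1.37 CPM in CD36- NK. B cell genes were abundant in every library, with sums of 4615 to 5142 CPM in CD36+ NK and 3035 to 3479 CPM in CD36- NK. Of 8 T cell genes, 2 were called higher in CD36+ NK (Cd4 and Cd8a) and none lower, with 7 log2 fold changes above 0 and 1 below. Their sums were 37.7 to 352 CPM against 67.6 to 148 CPM. Cd28 was at 51.2, 11.0 and 20.8 CPM in CD36+ NK and 77.4, 38.0 and 122 CPM in CD36- NK. Of 8 monocyte and neutrophil genes, 1 was called lower and none higher, with sums of 795 to 3155 CPM against 1432 to 2862 CPM. CD36+ NK replicate 1 stood apart from the other CD36+ NK libraries in genes of both lists. Cd3e, chosen after its values were seen, was at 27.0 CPM there and at most 1.06 CPM in any other library. S100a8 was at 824, 121 and 154 CPM in CD36+ NK replicates 1, 2 and 3 and at 619.6, 395 and 282 CPM in CD36- NK. Without this library, 4 of the 8 T cell genes were called lower (Cd3d, Cd3e, Cd3g and Cd28) and 2 higher (Cd4 and Cd8a). Of the 8 monocyte and neutrophil genes, 5 were then called lower and none higher. Of 8 dendritic cell genes, 2 were called higher (Xcr1 and Clec9a, log2 fold changes of 2.46 and 2.03) and 1 lower (Itgax, -1.13), with and without that library. Values of the 8 ligand genes without CD36+ NK replicate 1 are given where they differ in call.

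Of the 8 genes, 2 were lower in CD36+ NK and none was higher, at an adjusted p below 0.05 (edgeR quasi-likelihood test, Benjamini-Hochberg over all tested genes) and a fold change above 2. Over all tested genes, 2.98% were called lower and 2.98% were called higher. This equal split was not stable, as the numbers of genes called higher and lower, 440 each, became 94 and 323 without CD36- NK replicate 1 and 708 and 452 without CD36- NK replicate 2. The 2 genes were Ifng and Fasl. The median log2 fold change of the 8 genes was -0.72, beside 0.01 over all tested genes. It was -0.25 for the 7 genes without Csf2, which passed the filter on low counts only through CD36- NK. All 3 CD36+ NK libraries lay below all 3 CD36- NK libraries for 4 of the 8 genes (Ifng, Fasl, Tnfsf14 and Csf2), and 15.7% of all tested genes had that order. The order of Csf2 was largely set by that filter. None of the 8 genes had the reverse order, which 17% of all tested genes had. The summed level of the 8 genes was 377 to 439 CPM in CD36+ NK and 580.4 to 927 CPM in CD36- NK. In these bulk libraries, fewer cells of a type and less RNA per cell cannot be told apart.

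**Figure D1:**
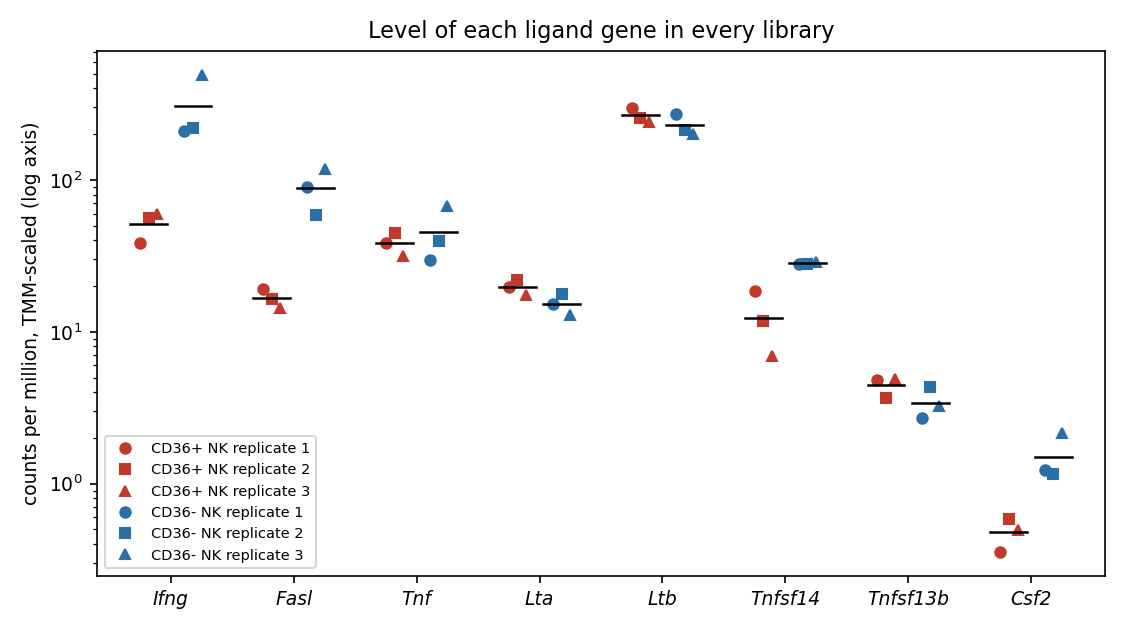
Level of the 8 ligand genes in CPM (log axis) in the 3 CD36+ NK (red) and 3 CD36- NK (blue) libraries, with the shape of a point giving the replicate and a bar the group mean. The groups are separate for Ifng, Fasl, Tnfsf14 and Csf2 and overlap for Tnf, Lta, Ltb and Tnfsf13b.

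Ifng encodes interferon gamma, the main macrophage-activating cytokine of NK and T cells. It had 434, 765 and 712 counts in CD36+ NK replicates 1, 2 and 3 and 2743, 2465 and 5050 counts in CD36- NK replicates 1, 2 and 3. Scaled for depth, these were 38.6, 56.3 and 59.2 CPM against 211, 218 and 493 CPM. Every CD36- NK library was above every CD36+ NK library, and CD36- NK replicate 3 stood above the other two of its group. The means were 51.4 ± 11.1 CPM and 307 ± 161 CPM (SD, n = 3 each), a ratio of 5.98 in favour of CD36- NK. CD36+ NK was lower by a log2 fold change of -2.58 (SE 0.37, 95% interval -3.45 to -1.71, edgeR adjusted p = 0.00800). Without CD36+ NK replicate 1 it was -2.42 with an edgeR adjusted p of 0.0186. In the table Ifng (ENSMUSG00000055170) lies on chromosome 10 from 118276951 to 118281797, plus strand. Gm49751, a predicted gene on the same strand, lies inside it from 118277324 to 118280045. Gm49751 had 63, 166 and 80 counts in CD36+ NK and 432, 489 and 504 counts in CD36- NK. How the counting divided reads between these genes is not given, so the level of Ifng is uncertain by such reads. The counts of Gm49751 were also below those of Ifng in every library.

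Fasl encodes Fas ligand, a membrane protein by which cytotoxic lymphocytes trigger apoptosis of cells that carry Fas. Its counts were 216, 222 and 173 in CD36+ NK and 1166, 663 and 1205 in CD36- NK, for replicates 1, 2 and 3 in turn. These were 19.2, 16.3 and 14.4 CPM against 89.6, 58.6 and 118 CPM. The groups did not overlap, and the lowest CD36- NK library was replicate 2. The means were 16.6 ± 2.44 CPM and 88.6 ± 29.5 CPM (SD, n = 3 each). Fasl was thus lower in CD36+ NK, with a log2 fold change of -2.41 (SE 0.26, 95% interval -3.03 to -1.80, edgeR adjusted p = 0.00324), and without CD36+ NK replicate 1 it was -2.54 (edgeR adjusted p = 0.00687). Fasl (ENSMUSG00000000817) lies on chromosome 1 from 161608258 to 161616064, minus strand. The call of Ifng and of Fasl held in each of the 16 alternatives, with the largest edgeR adjusted p at 0.0413 for Ifng and 0.0246 for Fasl, both without CD36+ NK replicate 2. Alternatives that only loosened the fold threshold kept the main fit, so they could not drop either call. NK lineage genes moved with both results, as given above, and their part in these results was not tested.

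The promoter windows of Ifng and Fasl are shown because these 2 genes passed the test. Each window holds 250 bases before and 50 bases from the start site, 5′ to 3′ on the gene's strand, from RefSeq on GRCm38.p6, a different build from that of the table's coordinates. The Ifng window is chr10:118440796-118441095 (plus strand) and the Fasl window chr1:161788446-161788745 (minus strand). Capitals mark every match, on either strand, to 7 motifs.
Ifng promoter: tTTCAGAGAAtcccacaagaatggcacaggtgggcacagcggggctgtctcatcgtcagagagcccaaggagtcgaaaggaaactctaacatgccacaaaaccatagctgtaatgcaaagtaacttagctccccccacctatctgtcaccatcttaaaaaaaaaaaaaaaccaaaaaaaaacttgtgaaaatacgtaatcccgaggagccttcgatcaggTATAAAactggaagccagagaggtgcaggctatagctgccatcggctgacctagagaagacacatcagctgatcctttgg
Fasl promoter: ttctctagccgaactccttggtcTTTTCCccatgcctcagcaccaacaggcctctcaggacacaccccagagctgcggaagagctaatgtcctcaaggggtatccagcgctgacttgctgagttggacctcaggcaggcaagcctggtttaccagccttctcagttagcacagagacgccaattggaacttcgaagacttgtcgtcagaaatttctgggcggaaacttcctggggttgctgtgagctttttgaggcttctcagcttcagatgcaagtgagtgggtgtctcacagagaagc
The motifs were T-box TCACACC, AP-1 TGANTCA, an NF-kB core GGGNNTTTC, NFAT GGAAAA, STAT TTCNNNGAA, CRE TGACGTCA and TATA box TATAAA, with N for any base. The Ifng window held a STAT match that began at base -249 and a TATA box match that began at base -30 from the start site. The Fasl window held an NFAT match on the opposite strand that began at base -227. No matches overlapped. Of the 32851 windows in the reference table, 8.30% held the STAT letters, 13.6% the TATA box and 23.4% the NFAT letters. The letters of the T-box, AP-1, NF-kB core and CRE motifs were in neither window, and 3.98%, 7.81%, 4.36% and 1.79% of all windows held them. The windows of Ifng and Fasl shared no motif of the 7.

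Tnf, Lta and Ltb form a compact cluster on chromosome 17, where they span 10913 bp from 35413415 to 35424327 in the table. Ltb (plus strand) and Tnf (minus strand) were 3060 bp apart, and Tnf and Lta (both minus strand) were 1157 bp apart. Tnf encodes the cytokine TNF, which acts on TNF receptors 1 and 2. Tnf was at 38.6, 44.5 and 31.5 CPM in CD36+ NK and at 29.7, 39.7 and 67.3 CPM in CD36- NK. The lowest and the highest of the 6 libraries were both CD36- NK, so the groups overlapped. The log2 fold change was -0.25 (SE 0.29, 95% interval -0.94 to 0.44, edgeR adjusted p = 0.657). Without CD36- NK replicate 3, the highest library, it was 0.13, so its direction rested on that library.

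Lta encodes lymphotoxin alpha, which binds TNF receptors as a homotrimer and the lymphotoxin beta receptor when joined with lymphotoxin beta. Lta was at 19.7, 21.9 and 17.4 CPM in CD36+ NK and at 15.1, 17.8 and 13.0 CPM in CD36- NK. The groups overlapped only between CD36+ NK replicate 3 and CD36- NK replicate 2. Its log2 fold change was 0.36 (SE 0.16, 95% interval -0.02 to 0.74, edgeR adjusted p = 0.210). Ltb encodes lymphotoxin beta, the membrane anchor of that complex, which is made by B, T and NK cells. Ltb was at 299, 256 and 242 CPM in CD36+ NK and at 270.3, 213 and 202 CPM in CD36- NK, with overlap. For Ltb the log2 fold change was 0.22 (SE 0.14, 95% interval -0.12 to 0.55, edgeR adjusted p = 0.390). The intervals of Lta and Ltb exclude a fall of the size measured for Ifng and Fasl. B cells also make lymphotoxins. The median log2 fold change over 8 B cell genes was 0.51, with 1 called higher and none lower. The part of B cells in the Lta and Ltb values was not tested. The microRNA genes Mir6974 and Mir6973a lie within Lta and Ltb and had 14 and 59 counts in all 6 libraries together.

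Tnfsf14 encodes LIGHT, a ligand of the lymphotoxin beta receptor and of HVEM. Its counts were 209, 159 and 83 in CD36+ NK and 365, 316 and 293 in CD36- NK, or 18.6, 11.7 and 6.90 CPM against 28.1, 27.9 and 28.6 CPM. The 3 CD36- NK libraries were almost equal, and the 3 CD36+ NK libraries lay below them and spread widely. The log2 fold change was -1.19 (SE 0.32, 95% interval -1.93 to -0.44, edgeR adjusted p = 0.0578), so it was not called. The highest CD36+ NK library was replicate 1, which stood apart in T cell and neutrophil genes. Without it the log2 fold change was -1.61 and was called (edgeR adjusted p = 0.0113). Over the 16 alternatives the adjusted p ran from 0.00343 (DESeq2) to 0.167 (edgeR without CD36+ NK replicate 2), and 4 of the 16 called it lower. Alternatives that only loosened the fold threshold kept its adjusted p, so they could not call it. The part of T cells and neutrophils in the level of Tnfsf14 was not tested.

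Csf2 encodes GM-CSF, which drives the survival and activation of myeloid cells. Its counts were few, 4, 8 and 6 in CD36+ NK and 16, 13 and 22 in CD36- NK, or 0.36, 0.59 and 0.50 CPM against 1.23, 1.15 and 2.15 CPM. The groups did not overlap, but the filter on low counts was passed only through the CD36- NK libraries, since 3 of them and none of the CD36+ NK libraries were over its minimum. For CD36+ NK replicate 2 the 95% Poisson interval of the level, for counting error only, was 0.25 to 1.16 CPM, and it reached the lowest CD36- NK value of 1.15 CPM. Csf2 had a log2 fold change of -1.60 (SE 0.41, 95% interval -2.57 to -0.64, edgeR adjusted p = 0.0510), and 2 of 15 alternatives called it lower. Alternatives that only loosened the fold threshold kept its adjusted p, so they could not call it. Of 7 related cytokine genes (Csf1, Csf3, Il3, Il5, Il4, Il13 and Il2), only Csf1 was tested, with a log2 fold change of -0.03. Il3 had no count in any library, and the others had 1 to 24 counts in all 6 libraries together.

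Tnfsf13b encodes BAFF, the survival factor of mature B cells, which myeloid cells mostly make. It was at 4.81, 3.68 and 4.91 CPM in CD36+ NK and at 2.69, 4.33 and 3.22 CPM in CD36- NK. The highest CD36- NK library, replicate 2, lay above the lowest CD36+ NK library, also replicate 2. Tnfsf13b had a log2 fold change of 0.39 (SE 0.26, 95% interval -0.22 to 0.99, edgeR adjusted p = 0.405). The median log2 fold change of the macrophage genes was 2.90. Csf1r, a macrophage gene, was at 1138, 1726 and 2342 CPM in CD36+ NK and at 411, 748 and 242 CPM in CD36- NK. The part of macrophages in the Tnfsf13b level was not tested.

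CD36- NK replicate 3 was the highest of its group for 5 of the 8 genes (Ifng, Tnf, Fasl, Tnfsf14 and Csf2), and it was the highest of its group for 35.9% of all tested genes. The names of the replicate 1 libraries are written differently from those of replicates 2 and 3, though nothing says that these were batches. The difference in log2(CPM + 2) of Ifng was -2.39 between the replicate 1 libraries and -2.47 between the means of the others. That of Fasl was -2.11 and -2.30. For Tnf it was 0.36 and -0.45, so the sign differed, and for Tnfsf14 it was -0.55 and -1.46.

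**Figure D2:**
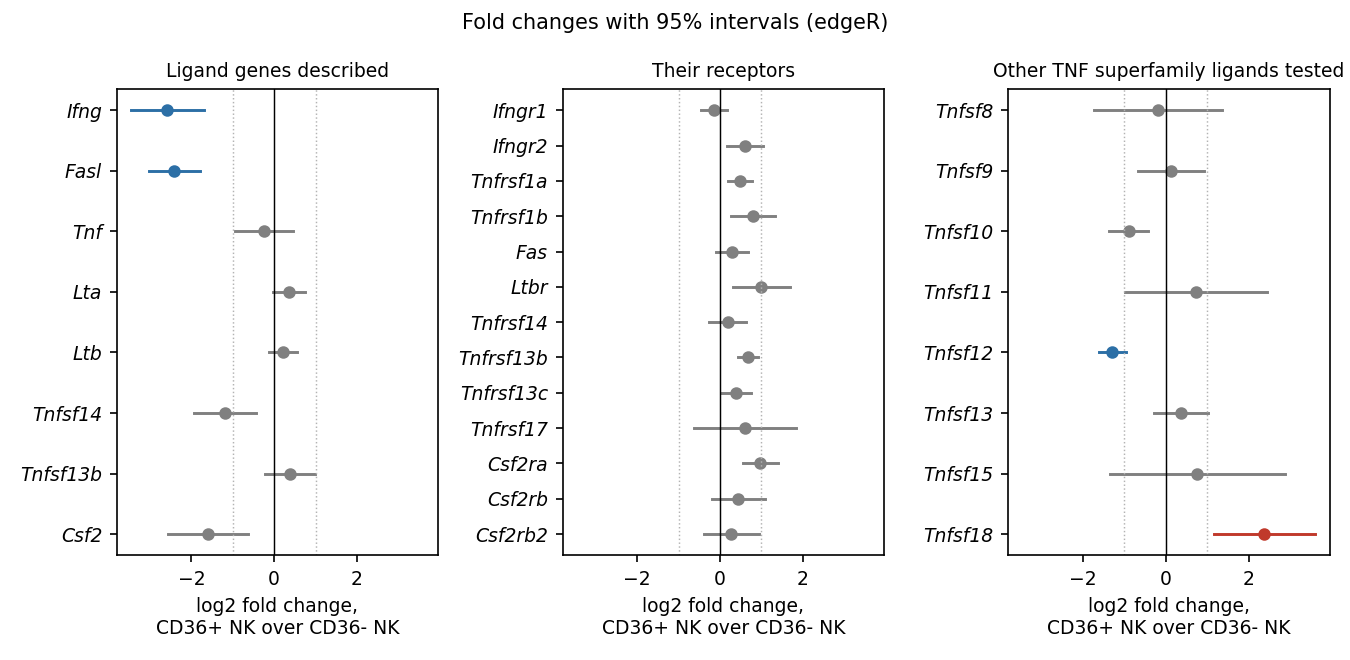
Log2 fold change of CD36+ NK over CD36- NK with its 95% interval for the 8 ligand genes, their 13 receptor genes and the 8 other TNF superfamily ligand genes tested; blue marks genes called lower, red called higher and grey not called, and dotted lines mark a 2-fold change. Ifng, Fasl and Tnfsf12 are called lower, Tnfsf18 is called higher, and no receptor gene is called.

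The receptors of these ligands were measured in the same libraries. None of the 13 receptor genes was called in either direction, and their median log2 fold change was 0.48, beside 0.01 over all tested genes. Of the 13 values, 12 were above 0, as were 7658 of the 14761 values over all tested genes. Of the interferon gamma receptor chains, Ifngr1 had 291 CPM in CD36+ NK and 324 CPM in CD36- NK (log2 fold change -0.15), and Ifngr2 had 89.0 and 58.3 CPM (0.61, edgeR adjusted p = 0.0807). The receptor genes of TNF, Tnfrsf1a and Tnfrsf1b, had log2 fold changes of 0.48 and 0.80 with edgeR adjusted p-values of 0.0501 and 0.0647. Fas, the target of Fas ligand, was at 13.8 and 11.3 CPM (log2 fold change 0.29, 95% interval -0.11 to 0.68). Thus the Fas interval did not reach a fall of the size seen for its ligand. Ltbr, the lymphotoxin beta receptor gene of stromal and myeloid cells, had a log2 fold change of 1.00 (edgeR adjusted p = 0.0755), and Tnfrsf14, which encodes HVEM, 0.19.

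Among BAFF receptors, Tnfrsf13b (TACI) was at 176 CPM in CD36+ NK and 110.1 CPM in CD36- NK. It passed the adjusted p (0.00901, edgeR) but not the fold, with a log2 fold change of 0.68. Tnfrsf13c (BAFF receptor) had a log2 fold change of 0.39, and Tnfrsf17 (BCMA), of plasma cells, 0.61 at 2.55 and 1.64 CPM. TACI and BAFF receptor are B cell proteins, and the B cell sums are given above. Of the GM-CSF receptor genes, Csf2ra had 187 and 95.2 CPM, a log2 fold change of 0.97 just under the fold required (edgeR adjusted p = 0.0203). Without CD36+ NK replicate 1, Csf2ra was called higher, and it was the only receptor gene of the 13 called then. The shared chain genes Csf2rb and Csf2rb2 had log2 fold changes of 0.44 and 0.28.

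Of 12 other TNF superfamily ligand genes, 8 were tested, with 1 called in each direction. Tnfsf12, which encodes TWEAK, was lower in CD36+ NK, at 14.2 CPM against 35.1 CPM (log2 fold change -1.30, edgeR adjusted p = 0.00315). Tnfsf18, which encodes GITR ligand, was higher, at 1.72 CPM against 0.33 CPM (2.38, edgeR adjusted p = 0.0327), on 74 counts in all. Its 3 CD36- NK libraries were at 0.15, 0.53 and 0.29 CPM, below the minimum of 0.84 CPM in the filter, and its 3 CD36+ NK libraries at 1.42, 1.25 and 2.49 CPM. It was thus tested only through the group in which it was high, so its call is no independent sign of a difference. Tnfsf10, which encodes TRAIL, a death ligand of NK cells, was at 14.6 CPM against 27.3 CPM and missed the fold (-0.90, edgeR adjusted p = 0.0345). The log2 fold changes of Tnfsf8, Tnfsf9, Tnfsf11, Tnfsf13 and Tnfsf15 were -0.18, 0.13, 0.72, 0.37 and 0.76, with edgeR adjusted p-values from 0.465 to 0.905. Tnfsf4, Cd40lg, Cd70 and Eda were under the filter, with 4 to 39 counts each over the 6 libraries. Cd40lg, a ligand of activated T cells, was at 3.29 CPM in CD36+ NK replicate 1 and at most 0.08 CPM elsewhere.

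Genes whose products drive Ifng transcription in NK cells were lower in CD36+ NK for 9 of 14, and none was higher, with a median log2 fold change of -1.92. Eomes and Tbx21, the T-box factors of NK cells, were at 35.2 against 211 CPM and at 49.9 against 243 CPM, log2 fold changes of -2.58 and -2.28. Il12rb2, a chain of the IL-12 receptor, was at 22.3 against 105 CPM (-2.24), and Il18rap, a chain of the IL-18 receptor, at 108 against 633 CPM (-2.55). For each of these 4 genes the edgeR adjusted p was between 0.000428 and 0.000856. Ets1 passed the adjusted p but not the fold (-0.52, edgeR adjusted p = 0.0387), and Il21r was not called (0.24). The NK lineage genes moved with them, with 9 of 10 lower and a median log2 fold change of -2.38, and their part in the result for this list was not tested. Klrk1 and Il2rb of this list are also among the 10 NK lineage genes. The log2 fold change of Ifng, -2.58, lay at the lower end of the range of this list, which ran from -2.58 to 0.39.

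Of 20 genes of interferon gamma signalling and its targets, 1 was lower and none was higher, with a median log2 fold change of 0.12. The gene was Jak1, the kinase bound to the ligand-binding receptor chain, at 570 against 1166 CPM (-1.03, edgeR adjusted p = 0.00392). Irf8 and Ciita, the genes not called that had the highest mean CPM, which is not scaled for length, had log2 fold changes of -0.42 and 0.33. The values of the other target genes had both signs. Of 19 genes of TNF and NF-kB signalling, none was called, with a median log2 fold change of -0.01. Tnfaip3, an inhibitor that NF-kB induces, was at 999, 399 and 1348 CPM in CD36- NK and 540, 505 and 502 CPM in CD36+ NK, so the CD36- NK libraries differed widely (edgeR adjusted p = 0.226). Rel had a log2 fold change of 0.26.

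None of 8 genes of the Fas death pathway was called, with a median log2 fold change of -0.11. Bcl2 and Cflar, both inhibitors of cell death, had -0.36 and 0.02. None of 10 genes of ligand processing and cytokine mRNA decay was called either, with a median of 0.13. Zfp36, whose product binds and destabilises Tnf mRNA, was at 1493 against 1121 CPM (0.41, edgeR adjusted p = 0.0990), and its relative Zfp36l2 at 770.2 against 1235 CPM (-0.68, edgeR adjusted p = 0.0275), under the fold required. By the KEGG entries in the table, 5 genes were higher and 2 lower of 101 tested in the TNF signaling pathway. In cytokine-cytokine receptor interaction, 23 were higher and 16 lower of 153 tested. The median log2 fold changes were -0.03 and 0.29.

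**Figure D3:**
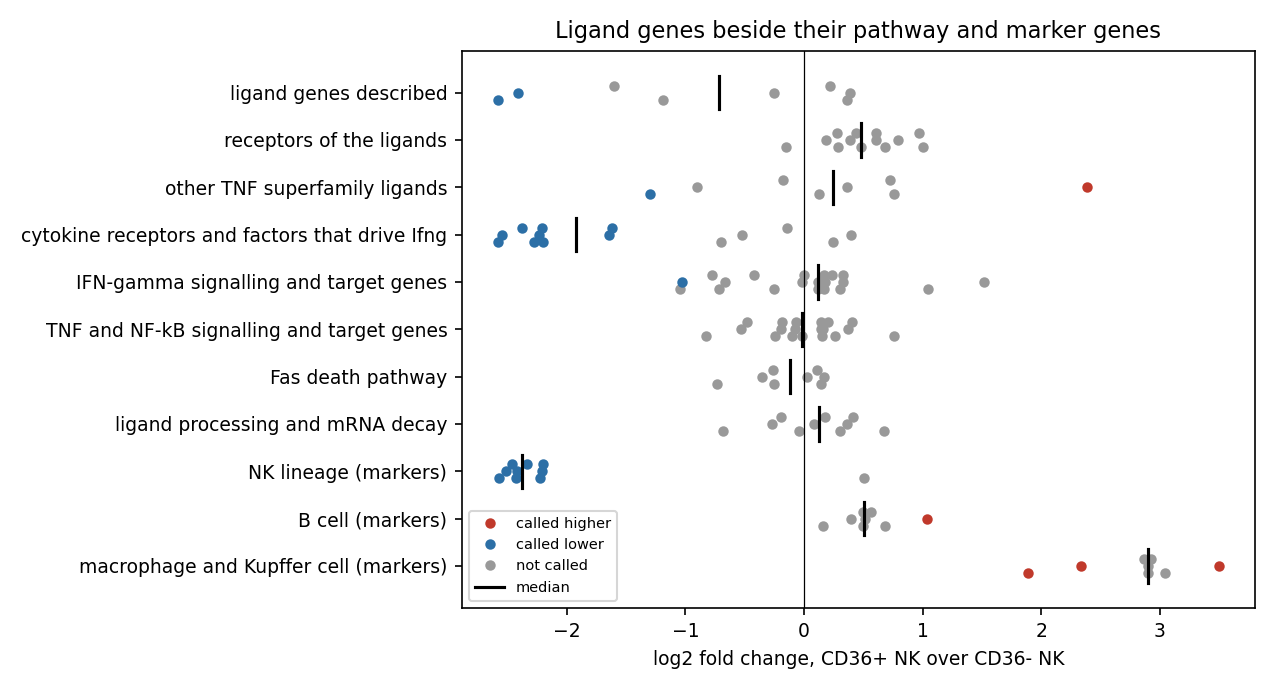
Log2 fold change of CD36+ NK over CD36- NK of every tested gene, by list, with blue for genes called lower, red for called higher, grey for not called and a black bar for the median. Ifng and Fasl lie among the values of the genes that drive Ifng and of the NK lineage genes, near -2.5, whereas 12 of the 13 receptor genes lie above 0 and the medians of the signalling lists lie between -0.11 and 0.13.

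The ligand genes were next set against the NK lineage genes of the same library, as log2(CPM + 2) of the gene less the mean of the 10 lineage genes. That mean was itself lower in CD36+ NK by a log2 difference of -2.07, so a gene with equal levels in both groups would lie above in CD36+ NK by that amount. On this scale Ifng was at -1.63, -1.15 and -0.84 in CD36+ NK and at -1.29, -1.07 and -0.14 in CD36- NK. Fasl was at -2.56, -2.82 and -2.74 in CD36+ NK and at -2.51, -2.93 and -2.19 in CD36- NK. For both genes the groups overlapped. The difference of CD36+ NK from CD36- NK was -0.37 for Ifng (two-sided exact permutation p = 0.5) and -0.17 for Fasl (two-sided exact permutation p = 0.6). With 3 libraries in each group no p below 0.1 is possible, so these values do not show that the groups were alike. Without CD36- NK replicate 3 the difference was -0.03 for Ifng and 0.01 for Fasl. Without the granule genes in the lineage list it was -0.62 for Ifng and -0.41 for Fasl. Fcgr3 was the only gene of the lineage list with a log2 fold change above 0, at 0.51. In a setting added after this was seen, without Fcgr3, the lineage mean differed by -2.35, and the difference was -0.09 for Ifng (two-sided exact permutation p = 0.9) and 0.12 for Fasl (two-sided exact permutation p = 0.7). The sign for Fasl thus depended on the choice of lineage genes.

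The other 6 genes lay above in CD36+ NK relative to the NK lineage genes, with no overlap of the groups. This scale places any gene above in CD36+ NK whose log2(CPM + 2) differed by less than that of the lineage genes. The share of all tested genes that lay so was not counted, so the order does not set these 6 genes apart. The differences were 1.89 for Tnf, 2.40 for Lta, 2.29 for Ltb, 0.92 for Tnfsf14, 2.33 for Tnfsf13b and 1.58 for Csf2. Each had the smallest exact permutation p, 0.1, which is 0.133 adjusted over the 8 genes. For genes at a few CPM the added 2 shrinks a difference, so those of Tnfsf13b and Csf2 are mostly the difference of the lineage genes. Those of Tnf, Lta and Ltb, whose groups overlapped in CPM, were also near the size of the lineage difference of -2.07. That of Csf2 was 1.08 with 0.5 added and 1.80 with 5 added. Thus Tnfsf14, which lay below in all 3 CD36+ NK libraries in CPM, lay above in them relative to the NK lineage genes. Relative to the macrophage genes, whose mean was 2.52 higher in CD36+ NK, all 8 genes lay below in CD36+ NK without overlap, by log2 differences from -4.96 for Ifng to -2.19 for Lta. A gene with equal levels in both groups would lie below by 2.52 on this scale. The share of all tested genes that lay below was not counted, so this order does not set the 8 genes apart.

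**Figure D4:**
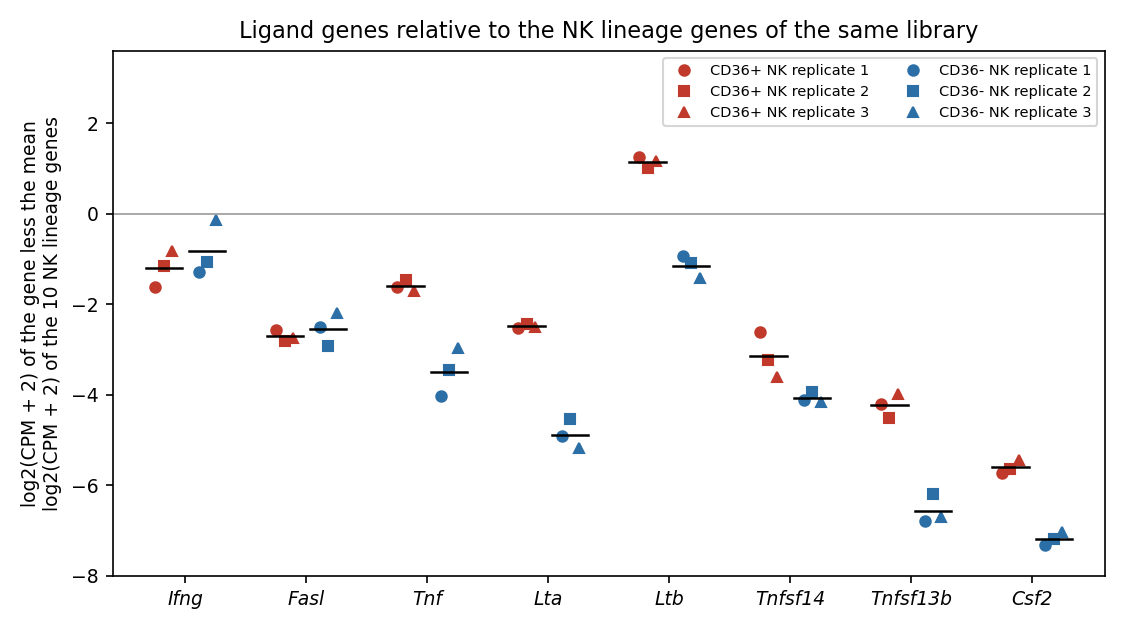
Level of each ligand gene in every library as log2(CPM + 2) less the mean of the 10 NK lineage genes in that library, with CD36+ NK in red, CD36- NK in blue and bars for the group means. The groups overlap for Ifng and Fasl, and the CD36+ NK libraries lie above the CD36- NK libraries for the other 6 genes.

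Levels of the 8 genes were compared with each other only per length, by the FPKM values that the authors deposited (fragments per kilobase of gene, scaled to library size). In CD36+ NK the mean FPKM was 75.3 ± 10.4 for Ltb, 31.8 ± 6.19 for Ifng, 14.0 ± 1.84 for Lta and 12.4 ± 2.29 for Tnf (SD, n = 3 each). Fasl had 7.01 ± 1.22, Tnfsf14 6.67 ± 3.33, Csf2 0.59 ± 0.14 and Tnfsf13b 0.40 ± 0.06. Lta and Tnf, and likewise Fasl and Tnfsf14, differed by less than their spread. In CD36- NK the order began with Ifng at 195 ± 99.0 and Ltb at 66.4 ± 10.8, followed by Fasl at 38.1 ± 12.1. Tnfsf14 (15.5 ± 0.12), Tnf (15.1 ± 6.23) and Lta (11.2 ± 1.95) came next, and Csf2 (1.90 ± 0.67) and Tnfsf13b (0.32 ± 0.08) were last. Tnf did not differ from Tnfsf14 or from Lta beyond its spread, whereas Tnfsf14 and Lta differed by more than theirs. By mean FPKM, Ltb was thus first of the 8 in CD36+ NK and Ifng in CD36- NK. The size of the lead of Ifng in CD36- NK rests on the gene lengths used.

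The length behind the FPKM values was 3046 bp for Tnf and 3482 bp for Ltb, longer than their spans of 2627 and 1882 bp in the table, so their FPKM values were low for their true length. Per kilobase of the exons in GENCODE vM21, a setting added after these lengths were seen, Ltb was at 175 ± 19.4 and Ifng at 39.7 ± 8.59 CPM per kilobase in CD36+ NK. In CD36- NK they were at 151 ± 24.3 and 237 ± 124, so Ifng and Ltb there did not differ beyond the spread of Ifng. On this scale Tnf passed Lta in CD36+ NK and Tnfsf14 in CD36- NK, and Tnfsf13b passed Csf2 in CD36+ NK by less than their spread.

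The genes whose centred log2(CPM + 2) profile over the 6 libraries was closest to each ligand were sought among 11376 genes with a mean of at least 5 CPM. For Ifng these were Itga2, Adamts14 and Il18rap, with root mean square differences of 0.26, 0.28 and 0.29. Itga2 encodes the integrin CD49b, a surface marker of circulating NK cells. For Fasl they were Spry2, Il2rb and Klrg1, at 0.11, 0.15 and 0.17. Il2rb and Klrg1 encode a receptor chain for IL-2 and IL-15 and an inhibitory receptor of mature NK cells. For Tnfsf14 they were Fam189b, Podnl1 and Gimap9, from 0.09 to 0.14. The neighbours of Tnf (Ttll4, Gm49553 and Gm43300) had distances from 0.14 to 0.16. Those of Ltb (Swi5, Ruvbl2 and Gm15772), Lta (Mmachc, Gdpgp1 and Pmvk), Tnfsf13b (Fech, Rida and Gen1) and Csf2 (Srpk2, Usp30 and Ccdc88c) had distances from 0.02 to 0.08. These last 4 ligands varied little over the libraries on this scale, and how many genes lay at such small distances was not counted. The profiles rest on 6 libraries that share their depth scaling, and no p is given.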

How the data were processed

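RNA of sorted CD36+ NK and CD36- NK cells was sequenced, with 3 libraries per fraction. Reads were filtered with Seqtk, mapped with HISAT2 2.0.4 and assigned to genes with StringTie by the authors, who deposited raw counts. The authors also deposited FPKM values, used here only to compare levels between genes. The submitters' processing notes name the rat build mRatBN7.2, whereas the identifiers are mouse Ensembl identifiers, and the build of the table's coordinates is not given in the sources used here. The broken lines of 2 genes, Tgfb1 and Tnf, were rejoined.

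The filter of filterByExpr (minimum count 10) kept 14761 genes. TMM factors scaled the libraries. The edgeR 4.0.16 quasi-likelihood test in R 4.3.3 compared the groups without a block, and a call needed an adjusted p under 0.05 and more than a 2-fold change. Standard errors come from the log2 fold change and the F statistic. Fold changes and log2 values are CD36+ NK over CD36- NK throughout. Exact permutation tests used scipy 1.17.1 with a pseudocount of 2. Total counts ran from 10292480 to 13787189 per library, and the biological coefficient of variation was 20.3%. Within groups, libraries varied beyond sampling noise (chi-square per degree of freedom 14.8 to 29.2). The scripts were tested on simulated data.

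The 8 genes and all gene lists were chosen with earlier results of these data known, so no list is tested. Named were every receptor and TNF superfamily ligand tested, up to 4 called genes by lowest p and 2 others by highest mean CPM of each pathway list, and the 3 closest profiles of each gene. Alternatives changed the scaling, filter, test (DESeq2 1.42.0, edgeR's exact test), block and thresholds, or left out 1 library. No protein sequences were used here.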

Additional observations from a re-analysis of the deposited data

How the results depend on the processing

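Ifng and Fasl were called lower under all 16 alternatives run, and no member was called higher under any. Alternatives that only loosened the fold threshold kept the main fit, so their calls of the members were fixed by it. The members called lower numbered 4 with edgeR's exact test and 2 to 3 with 1 library left out. Calls over all genes, 880 here, numbered 560 with the replicate block (221 higher and 339 lower), 1552 by adjusted p alone and 417 (without CD36- NK replicate 1) to 1160 (without CD36- NK replicate 2) with 1 library left out. The replicate block left Ifng and Fasl called, but same-numbered libraries did not deviate together in every pair (correlations 0.37, 0.09 and -0.09), so the numbers were not taken as pairs. The numbers are those of the titles, and the library names number CD36- NK replicates 2 and 3 as 1 and 2. Whether libraries share animals is not known. The log2 fold change of Tnf ran from -0.49 to 0.13 with 1 library left out, and that of Fasl relative to the NK lineage genes from -0.36 to 0.0093. Without Fcgr3 in the lineage list, added after the data were seen, it was 0.12. That of Ifng on the same scale, with all lineage genes, ran from -0.60 to -0.03. Tnfsf14 was also called with DESeq2 (adjusted p = 0.00343), edgeR's exact test (0.00607) and a block for the form of the library names (0.0433). Csf2 was called with edgeR's exact test (adjusted p = 0.0127) and upper-quartile scaling (0.0477), and was not fitted where at least 10 counts in every library were required. The causes of these differences were not tested. Counting error limits Csf2, with at most 22 counts in a library. A library left out leaves 2 in its group.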
